A study of Mus musculus with 16 samples.

Results

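The lysyl oxidase family was followed in mouse aorta through its 5 genes, Lox, Loxl1, Loxl2, Loxl3 and Loxl4. They were found by their GENCODE symbols among the 52636 genes of the deposited count table, and all 5 were among the 17125 genes with enough counts to be tested. Lysyl oxidases are secreted copper enzymes that oxidise lysine side chains of collagen and elastin. The aldehydes made this way condense into the covalent crosslinks that give the arterial wall its tensile strength and elastic recoil. In mice, loss of Lox leads to fragmented elastic fibres and aortic aneurysm, and loss of Loxl1 impairs the renewal of elastic fibres.

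RNA from the whole descending thoracic aorta, which carries blood down the chest, was sequenced in 16 libraries. The 4 groups of 4 libraries were C57BL/6J with hypertension induced by angiotensin II (AngII), C57BL/6J control, 129S6/SvEvTac with AngII-induced hypertension and 129S6/SvEvTac control. Both strains are inbred, and the labels give no further allele or agent. AngII, a vasoconstrictor peptide, was the agent of hypertension; its dose and duration, like the age and sex of the mice, are not stated in the labels. The comparisons ask how AngII hypertension changed each lysyl oxidase in each strain, and whether the strains differed. Whether each library is a separate animal is not stated, so p-values here measure only the spread between libraries, which may be technical.

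Total counts ran from 42116120 to 61381134 in 15 libraries and reached 121573945 in 129S6/SvEvTac AngII replicate 5. Levels are CPM, counts scaled to a common library total, and levels of different genes are compared as CPM per kilobase of exon. A gene was called where the Benjamini-Hochberg adjusted p of edgeR's quasi-likelihood test over all 17125 genes was below 0.05. The tissue carried its label: all 7 smooth muscle markers were detected in every group, with summed levels of 12542 to 29632 CPM in C57BL/6J AngII, 38960 to 42196 CPM in C57BL/6J control, 36387 to 45813 CPM in 129S6/SvEvTac AngII and 38165 to 41212 CPM in 129S6/SvEvTac control. In bulk tissue fewer cells of a type and less RNA per cell cannot be told apart.

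The 5 genes lie on 5 chromosomes of GRCm38. Loxl1, the member most closely tied to elastin (ENSMUSG00000032334.10), spans chromosome 9, 58287738 to 58313186, on the minus strand. Loxl2 (ENSMUSG00000034205.16, chromosome 14, 69609068 to 69695834, plus strand), Loxl3 (ENSMUSG00000000693.10, chromosome 6, 83034173 to 83052562, plus strand) and Loxl4 (ENSMUSG00000025185.14, chromosome 19, 42593982 to 42612813, minus strand) encode the members that carry scavenger receptor domains before the catalytic domain. The stretch below, 66 bases of coding sequence from the part that encodes the C-terminal catalytic domain, is the best conserved one of that length and is shown because such stretches set whether reads of one member could be counted for another. It is written 5′ to 3′ on the coding strand of GRCm38 transcripts, with capitals where the 4 genes have the same base, and covers coding bases 1638 to 1703 of 1824 in Loxl1, 2076 to 2141 of 2331 in Loxl2, 2016 to 2081 of 2265 in Loxl3 and 2031 to 2096 of 2277 in Loxl4.
Loxl1: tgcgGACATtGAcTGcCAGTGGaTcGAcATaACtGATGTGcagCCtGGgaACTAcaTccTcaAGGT
Loxl2: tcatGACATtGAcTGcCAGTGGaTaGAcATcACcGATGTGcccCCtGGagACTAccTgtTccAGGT
Loxl3: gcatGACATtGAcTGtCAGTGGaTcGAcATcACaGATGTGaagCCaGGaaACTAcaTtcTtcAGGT
Loxl4: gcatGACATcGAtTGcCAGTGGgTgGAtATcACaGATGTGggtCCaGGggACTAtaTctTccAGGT
Of the 66 bases, 42 were identical in these 4 genes and 41 in all 5 members. Between pairs, 47 to 53 of the 66 bases were shared, so even here the differing bases are spread through the stretch. Over whole coding sequences the identity between members ran from 58.6%, for Lox and Loxl2, to 66.2%, for Loxl2 and Loxl3. The longest identical run between the transcripts of any pair ran from 11 to 32 bases.

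Other genes share sequence with some members. Lox, Loxl1, Loxl3 and Loxl4 shared no 50-base stretch with another gene on the same strand. Loxl2 shared 45% of its 50-base stretches with 185 genes on the same strand, so the Loxl2 counts are uncertain. Most of these stretches, 42.9%, were shared with Gm21451, an unprocessed pseudogene on chromosome 14 (69390854 to 69480287). Casc4, a protein-coding gene at 21.5 to 42.3 CPM, shared 0.523%. A further comparison found 5.68% of the Loxl2 stretches in transcripts on the opposite strand. Gm21451 itself was listed at 1.63 to 7.24 CPM in C57BL/6J AngII, 0.888 to 1.27 CPM in C57BL/6J control, 1.60 to 2.62 CPM in 129S6/SvEvTac AngII and 0.527 to 1.15 CPM in 129S6/SvEvTac control. These values averaged 1.21 to 1.58% of the Loxl2 level in the 4 groups, and adding them to Loxl2 left each of its calls as it was. Loxl3 overlaps the antisense gene Htra2 over 8.54% of its 50-base stretches; Htra2, a mitochondrial protease, lay at 7.41 to 16.1 CPM. Since no source used here states whether the libraries keep strand, reads of Loxl3 and Htra2, of Loxl2 and the antisense Gm27177 (at most 0.503 CPM), and of Lox and its antisense neighbour AC161119.1 (not analysed here) cannot be told apart.

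Loxl1 was the most abundant lysyl oxidase per length in 3 of the 4 groups, and Lox took its place in C57BL/6J AngII. In that group Lox averaged 356 ± 76.0 and Loxl1 237 ± 22.4 CPM per kilobase (SD, n = 4 here and for each mean below). In C57BL/6J control Lox averaged 47.6 ± 5.67 and Loxl1 157 ± 12.4 CPM per kilobase. In 129S6/SvEvTac AngII the means were 148 ± 18 for Lox and 247 ± 26.9 for Loxl1, and in 129S6/SvEvTac control 36.7 ± 10.2 for Lox and 142 ± 19.95 for Loxl1, all in CPM per kilobase. The libraries of these 2 genes did not overlap within any group, so the change of order in C57BL/6J AngII lay beyond the spread.

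The 3 other members were lower, and Loxl4 was lowest in every group. Loxl2, an enzyme that acts on collagen IV, averaged 64.4 ± 17.5 CPM per kilobase in C57BL/6J AngII, 12.8 ± 1.55 in C57BL/6J control, 30.5 ± 4.54 in 129S6/SvEvTac AngII and 10.4 ± 1.88 in 129S6/SvEvTac control. Loxl3 averaged 44.5 ± 12.7, 21.1 ± 1.51, 30.8 ± 2.03 and 18.9 ± 1.10 CPM per kilobase in the same 4 groups. Loxl4 averaged 8.58 ± 3.20, 2.18 ± 0.288, 4.96 ± 0.431 and 2.04 ± 0.152 CPM per kilobase. Loxl2 ranked above Loxl3 in C57BL/6J AngII and below it in the other 3 groups. The ranges of these neighbours over libraries overlapped in both AngII groups and did not overlap in either control group. Within each C57BL/6J AngII library, however, Loxl2 lay above Loxl3. In 129S6/SvEvTac AngII, Loxl2 lay above Loxl3 in replicates 1 and 5 and below it in replicates 2 and 4. The order of the 5 genes by group mean was the same when the longest transcript set the length. With that length Loxl2 lay below Loxl3 in every 129S6/SvEvTac AngII library and stayed above it in every C57BL/6J AngII library.

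**Figure D1:**
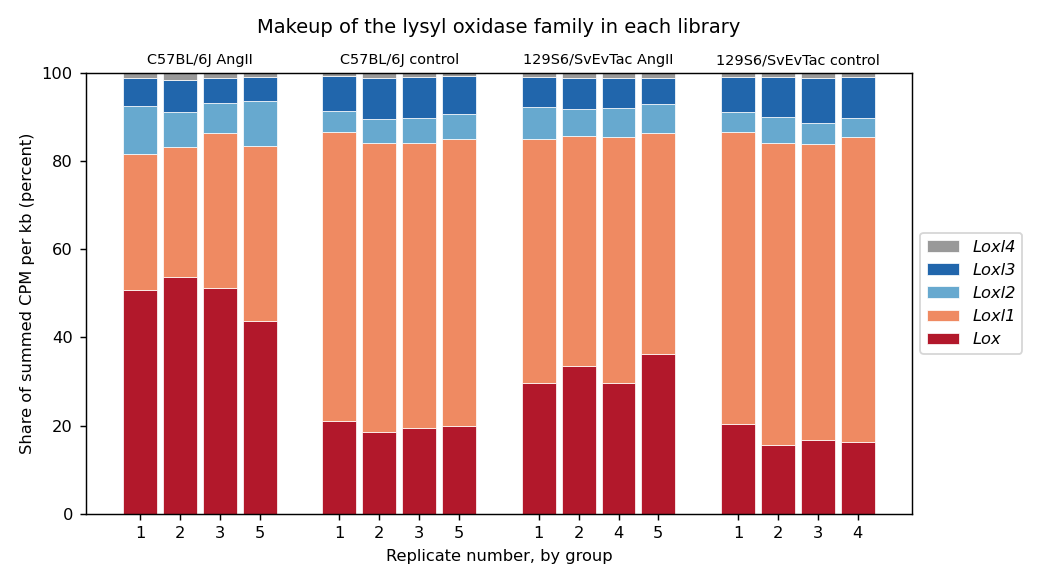
Each bar is 1 library, by replicate number within its group, split into the share (percent) of the summed CPM per kilobase held by each of the 5 lysyl oxidases. The Lox segment lies at 43.7 to 53.6% in C57BL/6J AngII and at 29.6 to 36.2% in 129S6/SvEvTac AngII, above the segments of the controls of the same strain.

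The summed level of the family was 710 ± 109 CPM per kilobase in C57BL/6J AngII, 241 ± 19.5 in C57BL/6J control, 461 ± 39.6 in 129S6/SvEvTac AngII and 210 ± 31.9 in 129S6/SvEvTac control. As shares of that sum, Lox held 49.8% in C57BL/6J AngII, with libraries at 43.7 to 53.6%, and 19.7% in C57BL/6J control. In 129S6/SvEvTac Lox held 32.2% with AngII, with libraries at 29.6 to 36.2%, and 17.2% in controls. Loxl1 held 33.8% in C57BL/6J AngII, 65.3% in C57BL/6J control, 53.4% in 129S6/SvEvTac AngII and 67.7% in 129S6/SvEvTac control. The plot of shares by group shows Lox with a larger and Loxl1 with a smaller share in both AngII groups than in their controls; shares of a sum move against each other by construction.

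In C57BL/6J aortas all 5 lysyl oxidases rose with AngII, from 7.47-fold for Lox to 1.51-fold for Loxl1. The background in this comparison was high: 38.9% of all genes tested were called, and 21.8% were called higher. In none of the 5 did the AngII libraries overlap the control libraries, and 19.2% of all genes tested were higher without overlap. The median log2 fold change was 1.98 over the 5 members and 0.01 over all genes tested.

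Lox, which oxidises lysines of both fibrillar collagens and elastin (ENSMUSG00000024529.13, chromosome 18, 52516067 to 52529867, minus strand), had 1816, 2158, 1453 and 1367 CPM in the C57BL/6J AngII libraries (replicates 1, 2, 3 and 5), against 249, 188, 231 and 241 CPM in the C57BL/6J control libraries (replicates 1, 2, 3 and 5). Every AngII library lay far above every control library, with replicate 2 the highest. The log2 fold change was 2.90 ± 0.19 (SE, adjusted p = 5.75e-07).

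Loxl2 had 446, 369, 218 and 359 CPM in the C57BL/6J AngII libraries, against 62.8, 60.7, 75.2 and 77.0 CPM in the control libraries, in the same order of replicates. Its log2 fold change was 2.34 ± 0.20 (SE, adjusted p = 1.19e-06), which is 5.05-fold. Replicate 3 was the lowest of the AngII libraries and still stood above all controls.

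Loxl4, the least abundant member, had 36.0, 54.9, 30.3 and 23.5 CPM in the C57BL/6J AngII libraries, against 7.67, 9.79, 10.5 and 8.81 CPM in the control libraries. It rose 3.93-fold, a change of 1.98 ± 0.20 on the log2 scale (SE, adjusted p = 4.60e-06). As for Lox, replicate 2 was the highest AngII library.

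Loxl3 had 217, 282, 152 and 168 CPM in the C57BL/6J AngII libraries, against 90.6, 91.97, 105 and 101 CPM in the control libraries, a change of 1.08 ± 0.15 on the log2 scale (SE, adjusted p = 4.76e-05). Loxl1 had 761, 819, 690 and 860 CPM in the C57BL/6J AngII libraries, against 539, 458, 529 and 548 CPM in the control libraries, a change of 0.59 ± 0.11 on the log2 scale (SE, adjusted p = 0.000704). Loxl1 thus changed least of the 5, with a gap between the lowest AngII and the highest control library that was narrow beside its level. Replicate 3 was the lowest AngII library for Loxl1, Loxl2 and Loxl3.

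**Figure D2:**
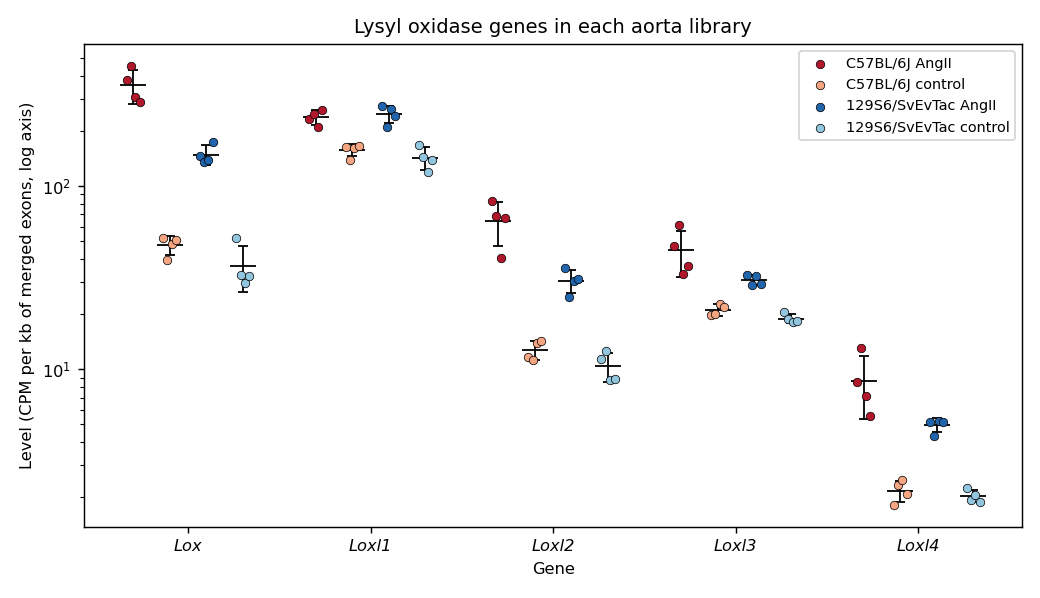
Level of each lysyl oxidase (CPM per kilobase of merged exons, log axis) by group, with a point for each library and black bars for the mean and 1 SD of 4 libraries. In both strains every AngII library lies above every control library for all 5 genes; Lox runs from 286 to 452 CPM per kilobase in C57BL/6J AngII and from 29.7 to 51.8 in 129S6/SvEvTac control.

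In 129S6/SvEvTac aortas all 5 lysyl oxidases rose as well, by 4.05-fold for Lox and 1.73-fold for Loxl1. Here 12.2% of all genes tested were called and 7.71% were called higher. The AngII and control libraries did not overlap for any of the 5, and 12.4% of all genes tested were higher without overlap. The median log2 fold change was 1.28 over the 5 members and 0.00 over all genes tested.

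Lox had 696, 644, 662 and 834 CPM in the 129S6/SvEvTac AngII libraries (replicates 1, 2, 4 and 5), against 248, 156, 142 and 155 CPM in the 129S6/SvEvTac control libraries (replicates 1, 2, 3 and 4). Its log2 fold change was 2.02 ± 0.19 (SE, adjusted p = 1.46e-05). Control replicate 1 stood above the other 3 controls, at a level like that of the C57BL/6J controls.

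Loxl2 had 193, 133, 164 and 169 CPM in the 129S6/SvEvTac AngII libraries, against 61.4, 68.0, 47.4 and 48.0 CPM in the control libraries, a change of 1.55 ± 0.19 on the log2 scale (SE, adjusted p = 0.000144). Loxl4 had 21.7, 18.2, 21.9 and 21.8 CPM in the 129S6/SvEvTac AngII libraries, against 9.43, 8.20, 8.71 and 7.99 CPM in the control libraries, a change of 1.28 ± 0.20 on the log2 scale (SE, adjusted p = 0.000718). For both genes the groups were well apart, and the AngII libraries lay closer together than those of C57BL/6J.

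Loxl1 had 896, 695, 863 and 798 CPM in the 129S6/SvEvTac AngII libraries, against 554, 472, 395 and 456 CPM in the control libraries, a change of 0.79 ± 0.11 on the log2 scale (SE, adjusted p = 0.000414). Loxl3 had 151, 133, 149 and 134 CPM in the 129S6/SvEvTac AngII libraries, against 94.3, 86.4, 82.99 and 84.5 CPM in the control libraries, a change of 0.70 ± 0.15 on the log2 scale (SE, adjusted p = 0.00571). In this strain Loxl3 had the smallest log2 fold change, whereas in C57BL/6J it was Loxl1. Leaving out any 1 of the 16 libraries kept all 5 members called in both strains.

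Because the members rose by unequal amounts, each was also set against Loxl1 within the library, as the log2 ratio of levels per length; these ratios were chosen after the fold changes were seen. The Lox to Loxl1 ratio was 0.56 ± 0.32 in C57BL/6J AngII and -1.73 ± 0.07 in C57BL/6J control, a difference of 2.29. In 129S6/SvEvTac it was -0.73 ± 0.21 with AngII and -1.98 ± 0.20 in controls, a difference of 1.25. Lox therefore gained on Loxl1 in both strains. The Loxl2 ratio differed by 1.71 in C57BL/6J and 0.76 in 129S6/SvEvTac, and the Loxl4 ratio by 1.32 and 0.49 in the same strains. In each of these 6 comparisons the exact two-sided permutation test gave p = 0.0286 (adjusted p = 0.0381 over the 8 ratios tested). The value 0.0286 is the smallest that 4 against 4 allows. The Loxl3 ratio differed by 0.45 in C57BL/6J (exact permutation p = 0.0857, adjusted p = 0.098) and by -0.09 in 129S6/SvEvTac (exact permutation p = 0.314), which did not pass. A ratio shows only that the members changed unequally. It rests on the same values as the fold changes, so the p-values of the ratios add no separate support. How many of all genes tested would part from Loxl1 in this way was not counted.

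The size of the AngII effect was then compared between strains. By edgeR's quasi-likelihood test Lox was called, 1 of 5 members, in a comparison where 9.96% of all genes tested were called and 5.34% were called higher in C57BL/6J. The AngII effect on Lox was larger in C57BL/6J by 0.88 ± 0.25 on the log2 scale (SE, adjusted p = 0.0391). That call lay close to the threshold: it was lost in 11 of the 16 omissions of 1 library, which included libraries of all 4 groups. Over the 16 omissions the adjusted p lay between 0.018 and 0.089 and the difference between 0.69 and 0.99. Among omissions, the call held only without C57BL/6J AngII replicate 3, C57BL/6J AngII replicate 5, 129S6/SvEvTac AngII replicate 5, 129S6/SvEvTac control replicate 3 or 129S6/SvEvTac control replicate 4. The direction was the same in all 16. The call also ended with the replicate block (adjusted p = 0.0512), with the adipocyte covariate (adjusted p = 0.109) and without C57BL/6J AngII replicate 1 and 129S6/SvEvTac AngII replicate 5 together (adjusted p = 0.0554). DESeq2 and limma voom each called 2 members, Lox and Loxl2. Over all genes tested they called 2663 and 2670 differences, against 1706 by edgeR.

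For Loxl2 the difference of effects was 0.78 ± 0.26 (SE, adjusted p = 0.0728), and for Loxl4 it was 0.69 ± 0.27 (SE, adjusted p = 0.124). Both missed the threshold in this fit. Loxl2 passed by DESeq2 (adjusted p = 0.0307) and limma voom (adjusted p = 0.0187), and in the edgeR fit when C57BL/6J AngII replicate 3 was left out (adjusted p = 0.00505) and Loxl4 when C57BL/6J AngII replicate 5 was (adjusted p = 0.0405). Loxl3 had a difference of 0.37 ± 0.20 (SE, adjusted p = 0.276), with an interval of 2 SE to each side from -0.04 to 0.78. Loxl1 was the only member with a difference below 0, at -0.20 ± 0.16 (SE, adjusted p = 0.472), and its interval of 2 SE ran from -0.52 to 0.12. The Loxl3 interval lies mostly above 0 and the Loxl1 interval mostly below it, and both include 0.

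Between the AngII-treated groups, 4 of the 5 members were higher in C57BL/6J than in 129S6/SvEvTac, where 31.3% of all genes tested were called and 16.8% were called higher. Those same 4 did not overlap between the strains, against 14.7% of all genes tested that were higher without overlap. Lox was higher by 1.261 ± 0.18 on the log2 scale (SE, adjusted p = 0.000109), which is 2.40-fold, with the lowest C57BL/6J library at 1367 CPM and the highest 129S6/SvEvTac library at 834 CPM. Loxl2 was higher by 1.08 ± 0.19 (SE, adjusted p = 0.000506) and Loxl4 by 0.79 ± 0.19 (SE, adjusted p = 0.00572). Loxl3 was higher by 0.53 ± 0.14 (SE, adjusted p = 0.0114), a call that was lost when only the AngII libraries were fitted (adjusted p = 0.0757) and when C57BL/6J AngII replicate 1 and 129S6/SvEvTac AngII replicate 5 were left out together (adjusted p = 0.0563). Loxl1 overlapped between the strains and was not called, at -0.06 ± 0.11 (SE, adjusted p = 0.753), with an interval of 2 SE from -0.28 to 0.17.

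In control aortas 0 of the 5 members differed between C57BL/6J and 129S6/SvEvTac by edgeR's quasi-likelihood test, while 10.4% of all genes tested were called. At an unadjusted p below 0.05 the count was also 0. DESeq2 and limma voom called 0 too, with 1 member each at an unadjusted p below 0.05. Lox came closest, with a log2 difference of 0.38 ± 0.18 (SE, adjusted p = 0.229) and an interval of 2 SE from 0.02 to 0.74. The unadjusted p of the same edgeR test was 0.053, so an interval of 2 SE just above 0 does not make a difference here. Without 129S6/SvEvTac control replicate 1, the control with the highest Lox level of its group, the Lox difference was 0.59 and passed (adjusted p = 0.0282). The other 4 differences lay between 0.10 and 0.30, and all 5 genes overlapped between the strains, while 11.3% of all genes tested were higher in C57BL/6J without overlap.

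**Figure D3:**
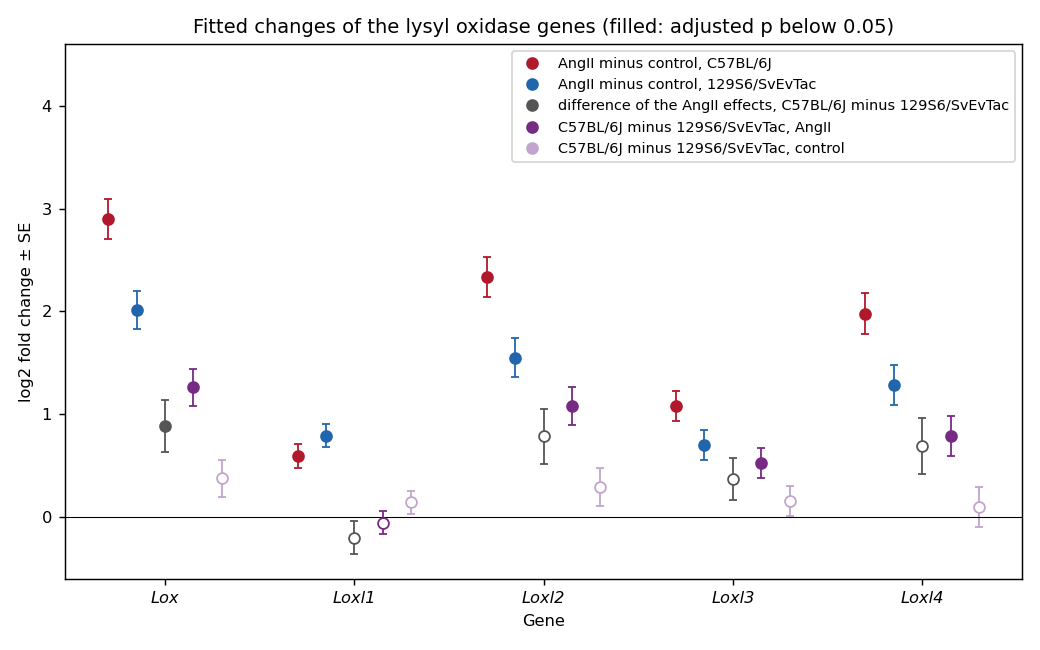
Fitted log2 changes of each lysyl oxidase in 5 comparisons, with bars of 1 SE, filled where the adjusted p was below 0.05. Both AngII effects lie above 0 and are filled for all 5 genes, the difference of the effects is filled for Lox alone (0.88), the strain difference with AngII for all but Loxl1, and the strain difference in controls for none.

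The genes around the lysyl oxidases were read from 7 lists with 86 genes, of which 83 were tested. With AngII in C57BL/6J, 52 of the 83 rose and 8 fell, where 21.8% of all genes tested were called higher and 17.1% lower. In 129S6/SvEvTac 40 rose and 2 fell, where 7.71% of all genes tested were called higher and 4.47% lower. The same shares stand beside the AngII counts of each list below. The median log2 fold changes of the 83 genes were 0.80 in C57BL/6J and 0.52 in 129S6/SvEvTac. The genes named from here on are a subset of those a written rule names, preferring calls that did not depend on 1 library, and calls of pathway genes given without a remark held in all 16 omissions of 1 library.

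The substrates of lysyl oxidases rose in both strains, 10 of 12 in C57BL/6J with a median log2 fold change of 1.92 and 10 of 12 in 129S6/SvEvTac with a median of 1.52. Eln, which encodes elastin, averaged 16015 ± 3905 CPM in C57BL/6J AngII and 4604 ± 883 CPM in C57BL/6J control, and the log2 fold changes were 1.80 ± 0.28 in C57BL/6J and 2.16 ± 0.29 in 129S6/SvEvTac (SE). Col1a1, a chain of type I collagen, rose by 2.98 ± 0.26 in C57BL/6J and 1.87 ± 0.25 in 129S6/SvEvTac on the log2 scale. Col3a1, the chain of type III collagen, rose by 2.69 ± 0.22 and 1.74 ± 0.21 in the same strains. Col4a1, a basement membrane collagen chain, rose by 0.93 ± 0.17 in C57BL/6J and 1.23 ± 0.17 in 129S6/SvEvTac. The difference of effects did not pass for any of these 4 genes, but for the fibrillar collagens it lay close to the threshold, at 1.11 ± 0.34 for Col1a1 (SE, adjusted p = 0.0518) and 0.95 ± 0.29 for Col3a1 (SE, adjusted p = 0.0508), both in the direction of Lox. For Eln it was -0.36 ± 0.39 (SE, adjusted p = 0.62) and for Col4a1 -0.30 ± 0.24 (SE, adjusted p = 0.47). Over the 12 substrates 1 difference was called by edgeR, 7 by DESeq2 and 6 by limma voom. Over all 17125 genes tested the same tools called 1706, 2663 and 2670 differences.

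Proteins that free or tether the enzymes formed the next list, where 8 of 10 rose and 1 fell in C57BL/6J and 7 of 10 rose in 129S6/SvEvTac, with medians of 1.27 and 1.05. Bmp1, the procollagen C-proteinase that also cuts the Lox propeptide, averaged 288 ± 49.2 CPM in C57BL/6J AngII and 118 ± 2.91 CPM in C57BL/6J control, and 170 ± 39.1 CPM in 129S6/SvEvTac AngII and 88.0 ± 11.4 CPM in 129S6/SvEvTac control. Its log2 fold changes were 1.29 ± 0.15 and 0.95 ± 0.15 (SE). Postn, periostin, a matrix protein that binds Bmp1, rose by 1.68 ± 0.13 in C57BL/6J and 1.83 ± 0.13 in 129S6/SvEvTac. Fn1, fibronectin, which promotes cutting of the Lox proenzyme, rose by 1.41 ± 0.12 and 1.71 ± 0.12 in these strains. Thbs1, thrombospondin 1, rose most of the named members of this list, by 3.55 ± 0.45 in C57BL/6J and 3.87 ± 0.46 in 129S6/SvEvTac. Fmod, fibromodulin, which targets Lox to collagen, was not called, at 0.43 ± 0.18 and 0.34 ± 0.18. Pcolce2, an enhancer of procollagen C-proteinases, fell by 0.51 ± 0.10 in C57BL/6J, and in 129S6/SvEvTac its value was 0.12 ± 0.10 (adjusted p = 0.516); the difference of effects, -0.63 ± 0.15, was called (SE, adjusted p = 0.016).

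Partners in elastic fibre assembly changed less evenly, with 6 of 10 higher and 1 lower in C57BL/6J and 5 of 10 higher in 129S6/SvEvTac. Fbn1, fibrillin 1, rose by 1.60 ± 0.14 in C57BL/6J and 0.99 ± 0.14 in 129S6/SvEvTac. Fbln5, fibulin 5, which tethers Loxl1 at sites of elastin assembly, averaged 884 ± 172 CPM in C57BL/6J AngII and 769 ± 51.5 CPM in C57BL/6J control, against 1580 ± 194 CPM in 129S6/SvEvTac AngII and 795 ± 58.8 CPM in 129S6/SvEvTac control. It rose in 129S6/SvEvTac by 0.99 ± 0.13 (adjusted p = 0.000209), stood at 0.20 ± 0.13 in C57BL/6J (adjusted p = 0.228), and the difference of effects was -0.79 ± 0.18 (SE, adjusted p = 0.0142). This is the opposite direction to Lox. Efemp2, fibulin 4, which brings Lox to elastin, was not called in either strain, at 0.18 ± 0.15 in C57BL/6J and 0.08 ± 0.15 in 129S6/SvEvTac. Ltbp4, a latent TGF-beta binding protein of elastic fibres, fell by 1.21 ± 0.21 in C57BL/6J, and its value in 129S6/SvEvTac was -0.54 ± 0.20 (adjusted p = 0.105).

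Of the genes that supply copper, the cofactor of these enzymes, 5 of 8 rose in C57BL/6J and 2 of 8 in 129S6/SvEvTac. Slc31a1, the copper importer of the plasma membrane, averaged 52.6 ± 6.07 CPM in C57BL/6J AngII and 19.4 ± 1.51 CPM in C57BL/6J control, and 27.2 ± 4.40 CPM in 129S6/SvEvTac AngII and 18.9 ± 1.19 CPM in 129S6/SvEvTac control. Its log2 fold changes were 1.44 ± 0.12 and 0.53 ± 0.11, and the difference of 0.91 ± 0.16 was called (SE, adjusted p = 0.00424). Atp7a, the transporter that loads copper onto secreted enzymes, rose by 0.999 ± 0.15 in C57BL/6J, with 0.29 ± 0.15 in 129S6/SvEvTac (adjusted p = 0.24). Mt2, a metallothionein, rose by 1.98 ± 0.28 in C57BL/6J and by 0.99 ± 0.27 in 129S6/SvEvTac, where the call held in 11 of 16 omissions.

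Other collagen-modifying enzymes had 17 of 21 higher and 1 lower in C57BL/6J and 11 of 21 higher in 129S6/SvEvTac. The lysyl hydroxylases, which hydroxylate lysines of collagen, were among them. Plod2, the telopeptide lysyl hydroxylase, rose by 1.63 ± 0.12 in C57BL/6J and 1.25 ± 0.12 in 129S6/SvEvTac, and Plod1 by 1.08 ± 0.11 and 0.85 ± 0.11. Pxdn, peroxidasin, which forms the sulfilimine crosslinks of collagen IV, rose by 0.99 ± 0.10 and 0.72 ± 0.10 in the same strains. Tgm2, a transglutaminase that crosslinks matrix proteins through glutamine, averaged 822 ± 210 CPM in C57BL/6J AngII and 1142 ± 107 CPM in C57BL/6J control, and 1530 ± 156 CPM in 129S6/SvEvTac AngII and 1062 ± 24.2 CPM in 129S6/SvEvTac control. It fell by 0.47 ± 0.15 in C57BL/6J, a call lost without C57BL/6J AngII replicate 5, and rose by 0.53 ± 0.15 in 129S6/SvEvTac, where the call held in 9 of 16 omissions. The difference of effects for Tgm2, -1.001 ± 0.21, was called in all 16 omissions (SE, adjusted p = 0.00885).

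The other copper amine oxidases went the other way in C57BL/6J, where both genes tested fell. Aoc3, the vascular adhesion protein of smooth muscle and fat, averaged 378 ± 67.2 CPM in C57BL/6J AngII and 763 ± 46.1 CPM in C57BL/6J control, and 470 ± 5.68 CPM in 129S6/SvEvTac AngII and 563 ± 53.2 CPM in 129S6/SvEvTac control. The log2 fold changes were -1.01 ± 0.11 in C57BL/6J (adjusted p = 8.81e-06) and -0.26 ± 0.11 in 129S6/SvEvTac (adjusted p = 0.148), and the difference of -0.75 ± 0.16 was called (SE, adjusted p = 0.0091).

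Among 20 regulators known to act on lysyl oxidase genes or with them, 6 rose and 3 fell in C57BL/6J, and 5 rose and 2 fell in 129S6/SvEvTac. Of all genes tested, 21.8% were called higher and 17.1% lower in C57BL/6J, so the counts there lay near the background. In 129S6/SvEvTac these shares were 7.71% and 4.47%. The medians of the regulators, 0.24 and 0.04, were the lowest of the lists apart from the other amine oxidases. Snai1, the transcription factor Snail, which Loxl2 and Loxl3 are known to bind, averaged 21.2 ± 8.03 CPM in C57BL/6J AngII and 2.92 ± 0.639 CPM in C57BL/6J control, and 4.71 ± 1.24 CPM in 129S6/SvEvTac AngII and 3.50 ± 0.637 CPM in 129S6/SvEvTac control. It rose by 2.85 ± 0.29 in C57BL/6J, stood at 0.43 ± 0.27 in 129S6/SvEvTac (adjusted p = 0.35), and had a difference of effects of 2.42 ± 0.39 (SE, adjusted p = 0.00249). Snai2, its paralog Slug, was not called, at 0.28 ± 0.15 in C57BL/6J and 0.45 ± 0.15 in 129S6/SvEvTac. Tgfb1, the cytokine TGF-beta 1, rose by 0.80 ± 0.08 in C57BL/6J and 0.45 ± 0.08 in 129S6/SvEvTac, and Hif1a, the hypoxia factor, by 0.81 ± 0.09 and 0.49 ± 0.09. In the difference of effects, 5.34% of all genes tested were called higher in C57BL/6J and 4.62% lower. Across all lists the median difference was 0.25, and 7 of 83 genes were called higher, 5 lower and 71 not called. Of those 12 calls, Pcolce2, Fbln5, Slc31a1, Tgm2, Aoc3, Snai1 and Srf held in all 16 omissions, while Col5a1 held in 2, Tll1 in 12, Atp7a in 6, F13a1 in 4 and Smad3 in 9. Exons of other genes overlap those of Eln, Col3a1, Col4a1, Col5a1, Fn1, Thbs1, Fbn1, Efemp2, Plod2, Tgm2 and Hif1a, so their counts are uncertain where the counting could split such reads.

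**Figure D4:**
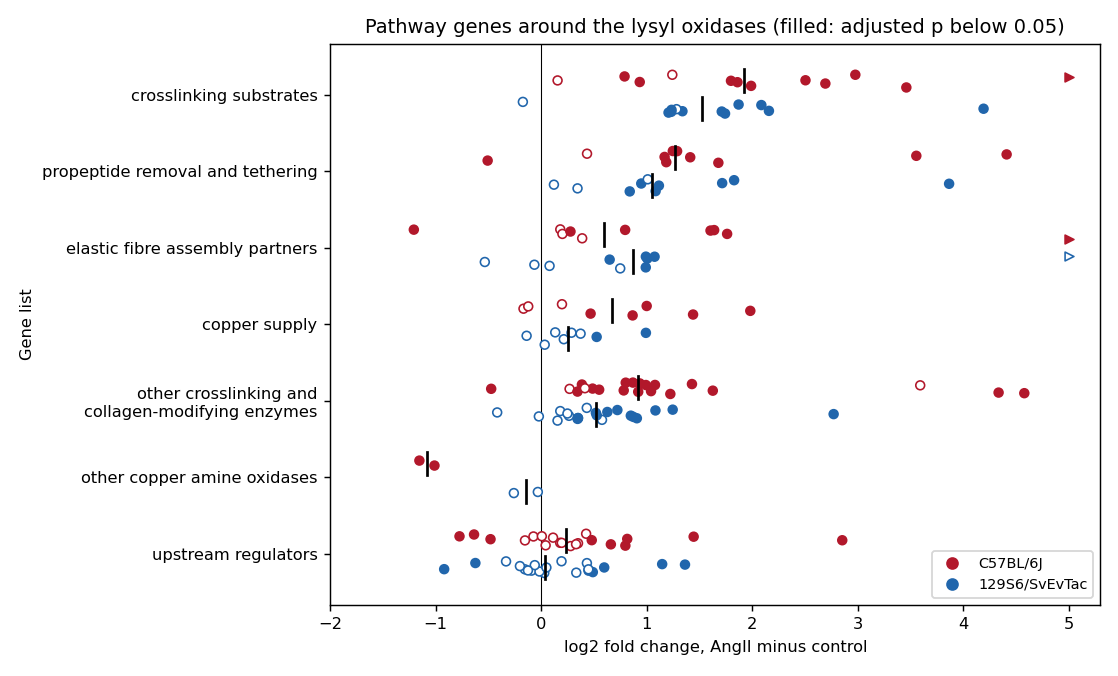
Log2 fold change (AngII minus control) of the pathway genes in 7 lists, one point per gene and strain, filled where the adjusted p was below 0.05, with a vertical bar at each list's median; 3 points beyond 5 are drawn as arrowheads at 5. The substrate list has medians of 1.92 in C57BL/6J and 1.52 in 129S6/SvEvTac, and the other copper amine oxidases lie below 0.

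The genes whose pattern over the 16 libraries was most like each member were taken as those with the smallest root mean square difference of centred log2 CPM, over named protein-coding genes outside the family. For Lox they were Col5a2, a type V collagen chain (0.23), Adamts12, a metalloproteinase (0.27), and Col1a1 (0.29). Beside them, Lox itself varied with an SD of 1.38 on the same scale. For Loxl2 they were Srpx2 (0.23), Col5a1 (0.27) and Ndnf (0.27), and for Loxl4 they were Tpm4, a tropomyosin (0.21), Plod2 (0.21) and Cd44, a hyaluronan receptor (0.22). Loxl3 lay nearest to Plod3, another lysyl hydroxylase (0.11), Lrrc59 (0.11) and Slc39a13, a zinc transporter (0.11). Loxl1 lay nearest to Creb3l1, a transcription factor of the secretory pathway (0.13), Htra1, a serine protease (0.15), and Fstl1 (0.15). The neighbours of Lox rose by 2.50 to 3.33 on the log2 scale in C57BL/6J and by 1.87 to 2.09 in 129S6/SvEvTac, and those of Loxl1 by 0.47 to 0.71 and 0.71 to 0.93. All points come from the same 16 libraries, so closeness partly reflects the 4 groups themselves. The neighbours were chosen by that closeness, so fold changes like those of the member follow from the choice. Exons of other genes overlap those of Plod3, Lrrc59, Slc39a13 and Tpm4.

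With AngII in C57BL/6J, the smooth muscle, macrophage and adipocyte markers had the most calls among the cell type markers. Beside the counts here and in the next paragraph, 21.8% of all genes tested were called higher and 17.1% lower in C57BL/6J. In 129S6/SvEvTac the shares were 7.71% and 4.47%. Of 7 smooth muscle markers 6 fell in C57BL/6J and 0 were called in 129S6/SvEvTac by edgeR's quasi-likelihood test, where 1 had an unadjusted p below 0.05; DESeq2 called 0 and limma voom 1. Macrophage markers rose in C57BL/6J, 7 of 7, with summed levels of 510 to 1111 CPM in C57BL/6J AngII and 223 to 259 CPM in C57BL/6J control; in 129S6/SvEvTac 0 of 7 were called by edgeR, DESeq2 or limma voom, and 0 had an unadjusted p below 0.05, with 172 to 276 CPM with AngII and 131 to 249 CPM in controls. Of 7 fibroblast markers 3 rose and 1 fell in C57BL/6J, with summed levels of 2215 to 3679 CPM in C57BL/6J AngII and 1686 to 1903 CPM in C57BL/6J control. In 129S6/SvEvTac 1 fibroblast marker rose, and the sums were 1142 to 2241 CPM with AngII and 1315 to 1898 CPM in controls. Adipocyte markers rose in 6 of 7 cases in C57BL/6J, with sums of 132 to 3008 CPM in C57BL/6J AngII and 82.6 to 240 CPM in C57BL/6J control. In 129S6/SvEvTac 0 of 7 adipocyte markers were called by any of these tools or had an unadjusted p below 0.05, with 242 to 1083 CPM with AngII and 111 to 523 CPM in controls.

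Of 6 endothelial markers 1 rose and 1 fell in C57BL/6J, with sums of 783 to 977 CPM in C57BL/6J AngII and 894 to 1145 CPM in C57BL/6J control. In 129S6/SvEvTac 2 endothelial markers rose (3 were called by DESeq2), with sums of 703 to 2251 CPM with AngII, the highest in replicate 2, and 609 to 1021 CPM in controls. Red blood cell markers were not called in either strain by edgeR, DESeq2 or limma voom, although 2 of 5 had an unadjusted p below 0.05 by limma voom in 129S6/SvEvTac; there their sums did not overlap, at 286 to 837 CPM with AngII and 915 to 1782 CPM in controls, while they overlapped in C57BL/6J. Of 4 Schwann cell markers 1 rose in C57BL/6J, with sums of 10.7 to 25.7 CPM with AngII and 5.83 to 10.5 CPM in controls, and 0 were called in 129S6/SvEvTac by these tools or at an unadjusted p below 0.05. T cell, B cell and striated muscle markers were not called in either strain by edgeR; limma voom called 1 T cell and 1 striated muscle marker and DESeq2 1 striated muscle marker in C57BL/6J, and their sums stayed at or below 55.8 CPM in every library.

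In the 129S6/SvEvTac comparison, the libraries of both groups overlapped in the summed level of smooth muscle, fibroblast, macrophage, adipocyte and endothelial markers. Among the C57BL/6J AngII libraries, Lox stood at 1816 CPM in replicate 1, which had sums of 12542 CPM of smooth muscle, 2215 CPM of fibroblast and 1021 CPM of macrophage markers. Replicate 2, with 2158 CPM of Lox, had sums of 16839, 2261 and 654 CPM for the same lists. Replicate 3, with 1453 CPM of Lox, had 29632, 2830 and 510 CPM, and replicate 5, with 1367 CPM of Lox, had 17799, 3679 and 1111 CPM. The adipocyte sums of replicates 1, 2, 3 and 5 were 3008, 381, 132 and 1260 CPM. Whether Lox followed any of these sums over the 4 libraries was not tested. With the adipocyte marker level as a covariate in the edgeR fit, all 5 members were still called in both strains. The difference of effects for Lox was then 0.78, against 0.88 without the covariate, and was no longer called (adjusted p = 0.109). Over all genes tested the calls in that comparison went from 1706 to 972 with the covariate. In C57BL/6J 6 of 7 adipocyte markers themselves rose with AngII, so this covariate cannot fully tell fat content and AngII apart. No other marker list was used as a covariate. The part of any cell type in the AngII effects and in the strain differences was not tested.

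**Figure D5:**
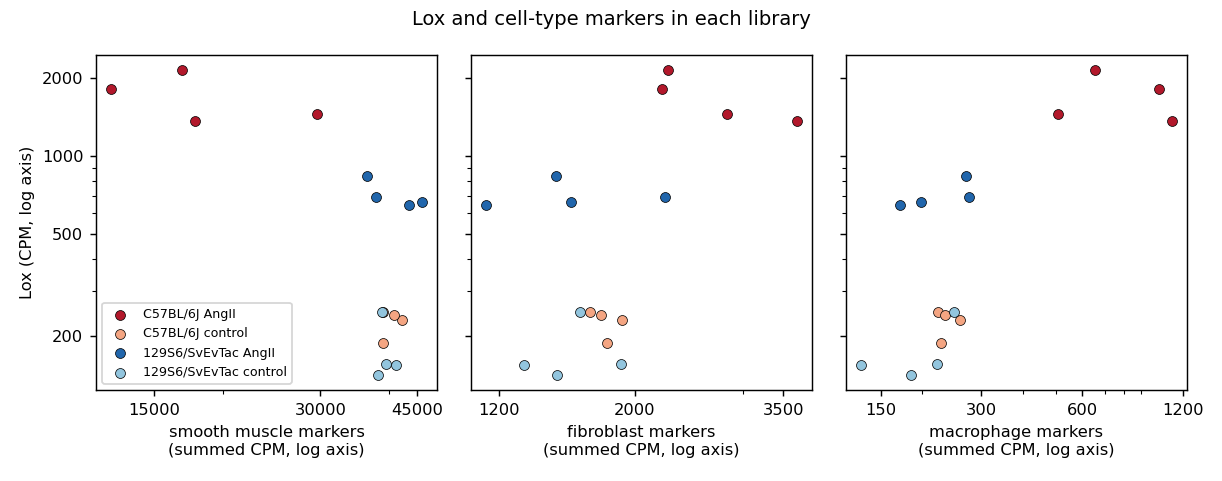
Lox level (CPM, log axis) of each library against the summed level (CPM, log axis) of smooth muscle, fibroblast and macrophage markers, coloured by group. The 4 C57BL/6J AngII libraries stand apart in Lox, smooth muscle and macrophage markers, while the 129S6/SvEvTac AngII libraries, at 644 to 834 CPM of Lox, overlap the controls on all 3 marker axes.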

How the data were processed

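The authors deposited expected counts per gene as whole numbers for 52636 genes in 16 libraries. Per the labels' protocols, column-purified, DNase-treated RNA was sequenced, HISAT2 aligned the reads to GRCm38, and StringTie with Gencode estimated abundance. DESeq2 1.26.0 and R 3.6.2 are named, with no role, per the submitters' processing notes; no source used here gives the Gencode release, the strandedness or how the counts were derived. If the counting split reads between overlapping genes or near-identical copies, those counts would shift.

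GENCODE M21 (GRCm38) gave names to 52489 genes, 49121 at an equal ID version, and none to 147; the entry of Lox differed in version. No replicates were alike within sampling noise (lowest chi-square per degree of freedom 37.6). In R 4.3.3, edgeR 4.0.16 was run with filterByExpr (minimum count 10), TMM scaling and a robust quasi-likelihood fit with 1 mean per group over all 16 libraries, and p-values were Benjamini-Hochberg adjusted over 17125 genes. SE is the log2 fold change over the root of F. CPM used TMM-scaled totals, log2 CPM a prior count of 2, and length was that of merged exons. The code was tested on simulated data. Alternatives were RLE scaling, library size only, other filters, DESeq2 1.42.0, limma 3.58.1 voom, only the groups compared, a replicate block, an adipocyte covariate, each library left out and the longest transcript as length. Added after seeing the data were the omission of C57BL/6J AngII replicate 1 together with 129S6/SvEvTac AngII replicate 5, the sum of Loxl2 with Gm21451, and the ratios to Loxl1. The jointly omitted libraries had the highest adipocyte marker sums of their groups, 3008 and 1083 CPM. Their striated muscle sums, 38.6 and 55.8 CPM, were also the highest of their groups. Sequences were read from the GRCm38 transcripts and coding positions of GENCODE M21.

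The members, gene lists and tests were chosen with earlier results of these data known. The rule for named genes took all 5 members, the 3 genes nearest to each, the called genes of pathway lists of up to 12 genes, the 6 called genes of lowest p in longer lists, and a fixed panel; the text names a subset of them.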

Additional observations from a re-analysis of the deposited data

Results flagged for a closer look

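In 129S6/SvEvTac control replicate 1 Lox stood at 248 CPM while the nearest other control of that group lay at 156 CPM, a gap large for the range of 4 libraries. Loxl4 in 129S6/SvEvTac AngII replicate 2 stood at 18.2 CPM, below the nearest library of its group at 21.7 CPM. With 20 combinations of gene and group examined, chance marks about 1 in 20. The AngII effect on Lox differed between the strains by 0.88 on the log2 scale, larger in C57BL/6J than in 129S6/SvEvTac, by the edgeR test of the difference itself (adjusted p = 0.0391); the omissions that end this call are given with the result.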

How the results depend on the processing

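The counts of called lysyl oxidases with AngII, 5 in each strain, were the same under every alternative and in each omission of 1 library. Between strains with AngII the count of 4 was the same in each omission and became 3, without Loxl3, with only the groups compared and without C57BL/6J AngII replicate 1 and 129S6/SvEvTac AngII replicate 5 together. In the difference of effects, where 1 member was called, DESeq2 and voom called 2, and the replicate block, the adipocyte covariate and leaving out both libraries chosen after seeing the data called 0; omissions of 1 library gave 0 to 2. In controls, where 0 were called, omissions gave 0 to 1. Pathway calls in the difference of effects, 12 at first, were 25 by DESeq2 and 25 by voom. They were 7 to 33 in omissions, moving beyond 1.5 times without C57BL/6J AngII replicate 3 or 129S6/SvEvTac AngII replicate 4. Over all genes that comparison gave 1706 calls, 2663 by DESeq2 and 2670 by voom. In controls the 8 pathway calls became 13 by DESeq2, 17 by voom, 17 with only the groups compared and 3 to 11 in omissions. The calls over all genes in controls were 1783, against 2518 by DESeq2, 3209 by voom and 2772 with only the groups compared. Pathway calls in omissions ran from 56 to 62 for AngII in C57BL/6J, 37 to 44 in 129S6/SvEvTac and 37 to 51 between strains with AngII. The strain difference of Loxl1 with AngII, which was not called, changed sign with library size only (0.0044) and ran from -0.12 to 0.0258 in omissions. That scaling shifted the median of all genes by -0.08 in C57BL/6J and -0.16 in 129S6/SvEvTac. Of 250 log2 fold changes of members under alternatives, 242 kept direction and call, 5 lost the call, 2 gained it and 1 changed sign; of 400 in omissions the counts were 384, 11, 3 and 2. With the longest transcript as length, 30 of 40 levels and shares moved by less than 1 SD; in C57BL/6J control Loxl1 had a share of 64.4%, and Loxl3 a level of 23.7 CPM per kilobase and a share of 9.73%. Over all genes, AngII in 129S6/SvEvTac gave 2087 calls, against 2899 by DESeq2 and 3324 by voom. Same-numbered libraries correlated at -0.06 to 0.15 in their deviations from group means and not every library matched its own number best, so the numbers were not taken as pairs. The cause of these changes was not tested. The lowest count of a member was 360, so depth limits Loxl4 most.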
